A study of Mus musculus with 27 samples.

Results

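Cytochrome P450 genes encode haem-containing monooxygenases that use oxygen and electrons from partner reductases to oxidise fatty acids, sterols, retinoids and foreign compounds. In the kidney, members of the Cyp4a subfamily hydroxylate the end of fatty acid chains, including that of arachidonic acid, and members of Cyp2j and Cyp2c make epoxides from arachidonic acid. Many of these enzymes are made mainly in the proximal tubule, the segment of the nephron that takes up most of the filtered solutes. The genes described here were the rows of the expression table whose symbol had the form of a P450 gene (Cyp, a family number, a subfamily letter and a gene number). Cyp27b1 and Cyp24a1 were left out, and FPKM above 0 was required in at least 3 kidneys. Of 88 symbols with this form, 2 were left out by name and 12 were above 0 in fewer than 3 kidneys, which left 74 genes of the 19392 in the table. The 12 left out at this step included Cyp11b1 and Cyp1a2, and none of them exceeded 0.07 FPKM in any kidney. Just inside the limit, Cyp19a1, Cyp2c66 and Cyp4a29 were above 0 in exactly 3 kidneys, at up to 0.02, 0.07 and 0.03 FPKM.

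RNA-Seq was done on the left kidney of 27 C57BL/6 mice, 3 at each of 9 ischemia times (0, 16, 18, 20, 22, 24, 26, 28 and 30 min). The left renal pedicle was clamped for that time. The protocol in the labels describes removal of the right kidney and counts the sham group as 0 min of clamping, without describing a separate sham operation. The kidneys were collected 24 h after ischemia. By the study's methods, each kidney came from its own mouse. The labels did not give sex or age. Values are given in FPKM (mapped fragments per kilobase of transcript, relative to library size), which corrects for gene length, so that levels of different genes can be set side by side.

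Over all genes, each kidney's FPKM added up to 512453 to 554036. Read counts were not analysed here, so the depth is unknown. The 4 Y-linked genes examined were above 0 in all 27 kidneys, with Ddx3y between 7.36 and 13.2 FPKM. The tissue label was checked against defining genes: the proximal tubule gene Slc34a1 lay between 410.6 and 2417 FPKM, and the loop gene Umod between 454 and 2276 FPKM. The 3 kidneys at 16 min were far apart in P450 expression: summed over the 74 genes, kidney 3 had 3817 FPKM and kidney 2 had 2330 FPKM. The tubular injury genes Havcr1, Lcn2 and Krt20 were higher at all 8 ischemia times than at 0 min. Havcr1 was 2.81, 2.49 and 22.0 FPKM at 0 min (mean 9.11 FPKM). At 16 min it was 574 FPKM in kidney 2 but 35.1 FPKM in kidney 3. Kidney 3 also stood apart at 0 min in Lcn2, with 63.6 FPKM against 11.5 and 9.39 FPKM in the other sham kidneys. That was above the 31.4 FPKM of Lcn2 in kidney 3 at 16 min. At 30 min, kidney 3 stood apart in the loop gene Umod, with 2034 FPKM against 463 and 454 FPKM in the other kidneys.

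The P450 genes covered a wide range of expression. Averaged over the 27 kidneys, 7 of the 74 were at 100 FPKM or more, 16 were between 10 and 100, 13 were between 1 and 10, and 38 were under 1 FPKM. At 0 min the order from the top was Cyp4b1, Cyp2e1, Cyp2j5, Cyp4a10, Cyp4a31, Cyp2a4 and Cyp4a14. The leading pair could not be told apart in level, since the Cyp4b1 kidneys (660.6 to 970.4 FPKM) lay on both sides of the Cyp2e1 kidneys (788 to 797 FPKM). Cyp2j5 lay below both, and its kidneys overlapped those of Cyp4a10. The kidneys of Cyp2a4 overlapped those of Cyp4a31 and of Cyp4a14, and all kidneys of Cyp4a31 lay above those of Cyp4a14. Cyp4b1 stayed first at all 9 times, whereas Cyp2e1 moved from second place at 0 min to seventh at 30 min and Cyp2a5 moved from twelfth to second.

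Summed over the 74 genes, the P450 level was 4304 ± 168 FPKM (SD, n = 3) at 0 min and 3004 ± 753 at 16 min. At 26 min it stood at 2446 ± 57.4. It went on to 1650 ± 216 at 28 min and to 1309 ± 320 at 30 min, when 30.4% of the 0 min value was left. The 3 kidneys at 0 min (4200 to 4498 FPKM) lay above the other 24, and the 3 kidneys at 30 min lay between 1094 and 1676 FPKM. As a share of all FPKM in a kidney, the sum went from between 0.775% and 0.841% at 0 min to between 0.209% and 0.308% at 30 min. By subfamily, the level that remained at 30 min was 42.4% of the 0 min level for Cyp4a and 42.3% for Cyp4b. It was 18.7% for Cyp2j, 12.9% for Cyp2d and 10.8% for Cyp2e.

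**Figure D1:**
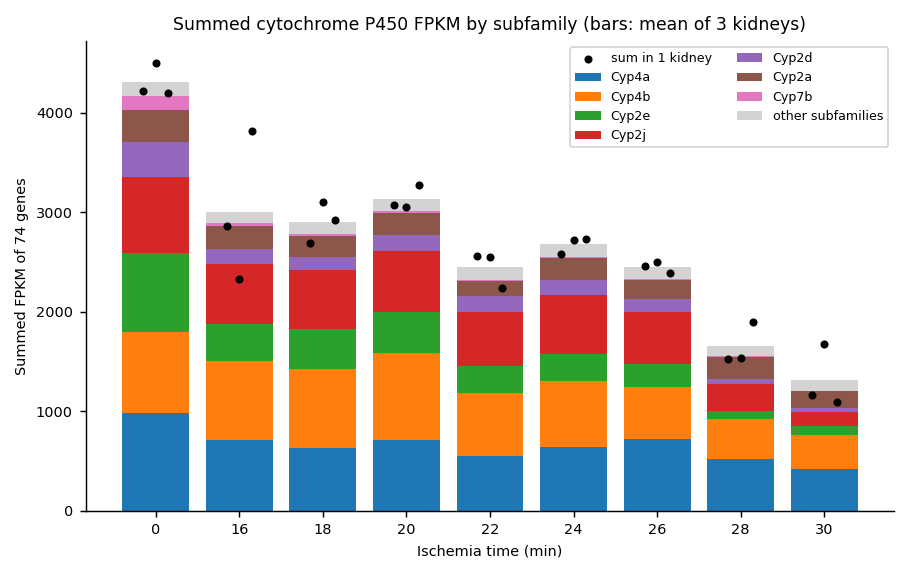
Summed FPKM of the 74 P450 genes (y axis) at each ischemia time in min (x axis, evenly spaced categories); bars are means of 3 kidneys, coloured by subfamily, and points are single kidneys. The sum was 4304 FPKM at 0 min and 1309 FPKM at 30 min, and within it the Cyp2j part was 516 FPKM at 26 min and 267 FPKM at 28 min.

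A gene was called differentially expressed (DEG) if limma, fitted to log2(FPKM + 1) of 18188 genes, gave a log2 fold change beyond 1 in either direction with an adjusted p under 0.05. All comparisons with 0 min use the same 3 sham kidneys. At 16 min, 6 of the 74 P450 genes were lower than at 0 min, where 0.979% of all genes tested were lower. The count was 7 at 18 min (background 1.09%) and 7 at 20 min (0.962%). It was 9 for each of 22, 24 and 26 min, with backgrounds of 1.2%, 1.15% and 1.61%. At these 6 times 0 P450 genes passed as higher, where 1.28%, 1.97%, 1.55%, 2.09%, 1.97% and 2.16% of all genes did, in order of time. An unadjusted p under 0.05, in either direction, was reached by 29 to 35 of the 74, beside 5796 to 7230 of all 18188 genes.

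At 28 min, 15 P450 genes were lower (4.21% of all genes) and 2 were higher (4.27% of all genes). At 30 min, 15 were again lower (5.59% of all genes) and 0 were higher (5.14% of all genes). In percent of the 74 genes, the lower calls were 8.11% at 16 min and 20.3% at both 28 and 30 min. Over the 36 P450 genes with a mean of at least 1 FPKM, the median log2 fold change was -0.33 at 16 min, -0.61 at 28 min and -0.69 at 30 min, beside 0, 0.01 and 0.02 over all 12346 genes at that level. Of the 74 genes, 17 were lower in at least 1 comparison with 0 min, 2 were higher in at least 1, and 55 were called in none. The matching shares of all genes were not computed, so whether these counts are unusual is not known.

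Between neighbouring times, 3 P450 genes were lower at 28 than at 26 min, namely Cyp2d26, Cyp2e1 and Cyp2j11 (1.06% of all genes), and 0 were higher (0.44%). A further 2 were lower at 30 than at 28 min, namely Cyp2c23 and Cyp2j5 (0.649% of all genes), and 0 were higher (0.401%). The first of these counts was 5 without kidney 3 at 26 min, and the second was 1 without kidney 3 at 30 min. Without kidney 3 at 16 min, the lower genes at 16 against 0 min were 9. Between 16 and 26 min, limma called 0 P450 genes and 0% of all genes. An unadjusted p under 0.05 was reached there by 10 of the 74, beside 1717 of all 18188 genes. A linear slope over 16 to 26 min passed in 0 P450 genes (0.0055% of all genes in each direction). The slope had an unadjusted p under 0.05 in 7 of the 74, beside 1514 of all 18188 genes. Its smallest adjusted p among the 74 was 0.18.

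These counts moved with the fit. When only the 6 kidneys compared were fitted, 0 P450 genes were called at 16 against 0 min and 0 at 30 against 28 min. With a pseudocount of 0.1 FPKM, which gives more weight to genes of low level, the lower calls at both 28 and 30 min were 25. The share of all genes called at that pseudocount was not computed, so whether this count is unusual is not known.

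**Figure D2:**
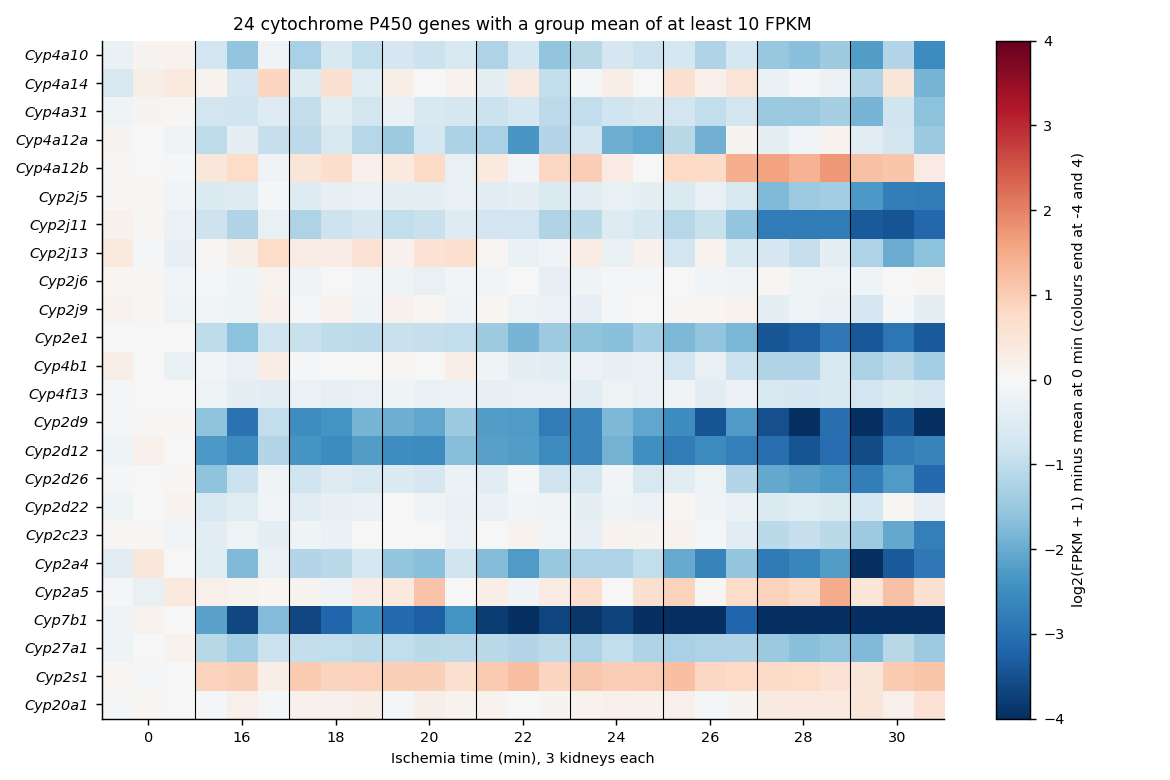
Difference of log2(FPKM + 1) from the mean of the 0 min kidneys (colour; blue lower, red higher) for the 24 P450 genes with a mean of at least 10 FPKM at any time (rows) in each of 27 kidneys (columns, by ischemia time in min). Cyp7b1, Cyp2d9 and Cyp2d12 were blue from 16 min on, Cyp2j11 and Cyp2d26 were darkest at 28 and 30 min, and Cyp4a12b and Cyp2a5 were red at 28 min.

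A list of 10 proximal tubule genes was examined beside the P450 genes, since most of the abundant P450 enzymes are made in that segment. None was lower at 16 to 24 min, 1 (Fbp1) was lower at 26 min, 7 were at 28 min and 9 were at 30 min, each against 0 min. From 26 to 28 min 3 of the 10 were lower, and from 28 to 30 min 3 were. Their summed level was 6999.6 to 7796 FPKM in the sham kidneys and 5403 to 8678 FPKM at 16 min. At 28 min it was 2964.5 to 3127 FPKM, and at 30 min 1896 to 2385 FPKM. None of the 10 was at 0 in any kidney. Of the loop genes Umod and Slc12a1, 1 was lower at 26 min and both were lower at 28 and 30 min. Umod at 30 min was 463, 454 and 2034 FPKM, so that 1 kidney lay above all sham kidneys (1247, 1405 and 1255 FPKM). Of 3 leukocyte genes, 1 was higher at each time from 16 to 28 min and 2 were higher at 30 min. Fewer cells of a type and less RNA per cell cannot be told apart in whole kidneys, and the part of these markers in the P450 results was not tested.

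The Cyp4a subfamily had 8 members and the largest sum at 0 min, 983 ± 153 FPKM. The abundant members were Cyp4a10, Cyp4a14 and Cyp4a31, and Cyp4a12a and Cyp4a12b were at lower levels. Cyp4a10 and Cyp4a14 are known targets of the fatty acid receptor PPAR alpha, and Cyp4a12a is known as a maker of the arachidonic acid product 20-HETE. These genes lie in 1 cluster on chromosome 4 of GRCm38.p6, from Cyp4a12a at chr4:115299046-115332815 through Cyp4a14 and Cyp4a10 (chr4:115518287-115533649) to Cyp4a31. Cyp4b1 follows at chr4:115624698-115647721. Of the 8 members, 2 were lower and 1 was higher at 28 min, and 2 were lower at 30 min.

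Cyp4a10 was 416, 539.9 and 545 FPKM in the kidneys at 0 min and 294, 167 and 451 FPKM at 16 min. It was 175, 156 and 185 FPKM at 28 min and 104, 221 and 86.8 FPKM at 30 min. The groups at 0 and 16 min overlapped, and all kidneys at 28 and 30 min lay under the lowest kidney at 0 min. The log2 fold change was -0.93 (SE 0.34) at 16 min, with an adjusted p of 0.0576, and -2.07 (SE 0.34) at 30 min, with an adjusted p of 2.78e-05. Cyp4a10 passed at 18, 22, 24, 26, 28 and 30 min and missed at 16 and 20 min.

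Cyp4a31 was 225, 273 and 262 FPKM at 0 min and 152, 146 and 176 FPKM at 16 min, so these groups did not overlap. It was 89.6, 90.2 and 99.99 FPKM at 28 min. Its log2 fold change reached -1.42 (SE 0.20) at 28 min and -1.35 at 30 min, the only times at which it passed. Of its 50-base stretches of transcript, 20.1% also occurred in another P450 gene. For Cyp4a10 the share was 30.5%, of which Cyp4a31 held 15.3% and the lowly expressed Cyp4a32 25.0%, and for Cyp4a14 it was 0%. How the reads of such stretches were divided is not given in the sources used here, so values of genes with shared stretches are uncertain to that extent.

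Cyp4a14 passed in none of the comparisons. It was 107, 197 and 219 FPKM at 0 min, 261, 191 and 241 FPKM at 26 min, and 138, 158 and 141 FPKM at 28 min. At 30 min it was 71.9, 234 and 45.5 FPKM, the widest spread of any time (5.15-fold from the lowest to the highest kidney). Kidney 2 at 30 min was above all 3 sham kidneys and the other two were below them. The log2 fold change at 30 min was -0.77 (SE 0.47, adjusted p 0.182), and without that kidney it was -1.45 (adjusted p 0.00695).

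The kidneys with high values were in part the same for these neighbours. Cyp4a10 and Cyp4a14 were highest in the same kidney at 6 of 9 times, and Cyp4a31 shared it at 4 of 9. Matching counts for other genes were not computed. The deviations from the group mean of log2(FPKM + 1) correlated over the 27 kidneys with r = 0.93 for Cyp4a10 and Cyp4a14, 0.79 for Cyp4a10 and Cyp4a31, and 0.81 for Cyp4a14 and Cyp4a31. Cyp4a12b, which lies nearby on chromosome 4, had r = -0.22 with Cyp4a10, and Cyp2d9 on chromosome 15 had r = 0.79 with it. These are descriptions, since the values of 1 kidney share a library.

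Cyp4a12a and Cyp4a12b are near-identical copies. Their coding sequences, read from the transcripts of the annotation for GRCm38, differed at 23 of 1527 bases (98.49% identity), and 48.9% of the 50-base stretches of the Cyp4a12a transcript also occurred in Cyp4a12b. The stretch from base 624 to base 683 of the coding sequence, counted from the A of the start codon, is shown because it has 4 of the differing bases, given in capitals, after a run that cannot separate the copies.
Cyp4a12a: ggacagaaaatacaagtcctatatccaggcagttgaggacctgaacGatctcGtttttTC
Cyp4a12b: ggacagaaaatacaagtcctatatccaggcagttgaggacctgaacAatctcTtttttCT

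At 0 min Cyp4a12a was 30.1, 28.1 and 25.0 FPKM and Cyp4a12b was 25.7, 24.9 and 23.6 FPKM. At 28 min Cyp4a12b was 77.4, 66.3 and 84.6 FPKM, all above the sham kidneys, with a log2 fold change of 1.48 (SE 0.30, adjusted p 0.000448). Cyp4a12a at 28 min was 21.6, 25.6 and 30.6 FPKM, which overlapped the sham kidneys. Cyp4a12a was lower at 20, 22 and 24 min, with a log2 fold change of -1.70 (SE 0.43, adjusted p 0.0056) at 24 min. The share of Cyp4a12a in the pair was 52.8% at 0 min and between 20.0% and 33.5% on average at the other times. The sum of the pair depends little on how reads were divided between the copies. It was 52.5 ± 3.64 FPKM at 0 min, 102 ± 11.9 at 28 min and 63.1 ± 19.5 at 30 min (SD, n = 3), and its kidneys at 28 min (91.9 to 115.1 FPKM) lay above those at 0 min.

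The Cyp2j subfamily had 7 members, all on chromosome 4, and its sum was 763 ± 66.6 FPKM at 0 min. Cyp2j5 makes arachidonic acid epoxides in the proximal tubule and made up most of the sum. The sum was still 516 FPKM at 26 min, then 267 FPKM at 28 min and 143 FPKM at 30 min. Of the 7 members, 0 were called at 16 to 24 min, 1 was lower at 26 min, 2 at 28 min and 3 at 30 min.

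Cyp2j5 was 579.6, 589.9 and 522 FPKM at 0 min and 387, 394 and 536 FPKM at 16 min, and kidney 3 at 16 min overlapped the sham range. It was 375, 454 and 362 FPKM at 26 min, 166, 204 and 213 FPKM at 28 min, and 113, 81.1 and 79.8 FPKM at 30 min. From 26 min on, the 3 groups did not overlap each other. The step from 26 to 28 min, a log2 fold change of -0.99 (SE 0.16, adjusted p 0.000293), lay just inside the fold limit of 1 and was not called. The next step, from 28 to 30 min, was -1.09 (SE 0.16, adjusted p 0.000361) and was called.

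Cyp2j11 fell at the earlier step. It was 134, 122 and 99.9 FPKM at 0 min and 52.3, 63.4 and 38.9 FPKM at 26 min, and the 3 kidneys at 28 min were within 16.1 to 16.2 FPKM. The log2 fold change from 26 to 28 min was -1.63 (SE 0.22, adjusted p 6.74e-05), and from 28 to 30 min it was -0.48 (adjusted p 0.158). Cyp2j13 had means of 52.6 FPKM at 0 min and 72.1 FPKM at 20 min, with overlapping kidneys, and was lower only at 30 min, with values of 21.4, 12.2 and 15.7 FPKM (log2 fold change -1.69, SE 0.26, adjusted p 1.23e-05).

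The remaining Cyp2j genes were not called. Cyp2j6 lay between 12.6 and 17.8 FPKM in all 27 kidneys, and its log2 fold change at 30 min was -0.15 (SE 0.10). Cyp2j9 lay between 6.78 and 13.1 FPKM, with -0.48 (SE 0.15, adjusted p 0.0109) at 30 min, inside the fold limit. Cyp2j12 and Cyp2j8 were under 1 FPKM in every kidney. The members shared under 1% of their 50-base stretches with other P450 genes, where computed for the 5 Cyp2j genes above 1 FPKM.

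Cyp2e1 is the ethanol-inducible P450, which oxidises small molecules such as ethanol and acetone and turns chloroform and paracetamol into reactive products. It is at chr7:140763819-140774990. In the sham kidneys it was 788, 795 and 797 FPKM, the narrowest spread among the leading genes. It was 392, 255 and 451 FPKM at 16 min, 228, 264 and 221 FPKM at 26 min, and 73.2, 80.1 and 109 FPKM at 28 min. All 24 ischemia kidneys lay below the sham kidneys, and the kidneys at 28 min lay below all at 26 min.

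Against 0 min, Cyp2e1 had a log2 fold change of -1.10 (SE 0.19, adjusted p 0.000752) at 16 min, -0.96 (adjusted p 0.00171) at 20 min, where it missed the fold limit, and -3.20 (adjusted p 7.41e-10) at 28 min. From 26 to 28 min it was -1.49 (SE 0.19, adjusted p 5.56e-05). From 28 to 30 min it was 0.04 (adjusted p 0.959), with 74.3, 106 and 75.7 FPKM at 30 min. Cyp2e1 was therefore called both from 0 to 16 min and from 26 to 28 min, and its slope over the times in between had an adjusted p of 0.18.

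The 3 genes that were lower at 28 than at 26 min lie on 3 chromosomes. The 250 bases before their start sites are shown 5′ to 3′ on the strand of the gene, from RefSeq on GRCm38.p6, because these genes were called at the same step. Cyp2e1 is at chr7:140763569-140763818 (plus strand), Cyp2d26 at chr15:82794246-82794495 (minus strand) and Cyp2j11 at chr4:96348681-96348930 (minus strand). Capitals mark TATAAA, the core of a TATA box, on either strand (as TTTATA where it lies on the other strand). It was found for Cyp2e1 and Cyp2d26 and not for Cyp2j11.
Cyp2e1: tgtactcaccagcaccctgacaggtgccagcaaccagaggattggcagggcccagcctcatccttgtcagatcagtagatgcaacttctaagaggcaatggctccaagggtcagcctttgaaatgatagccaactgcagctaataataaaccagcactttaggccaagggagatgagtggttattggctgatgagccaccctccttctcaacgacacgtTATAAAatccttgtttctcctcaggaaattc
Cyp2d26: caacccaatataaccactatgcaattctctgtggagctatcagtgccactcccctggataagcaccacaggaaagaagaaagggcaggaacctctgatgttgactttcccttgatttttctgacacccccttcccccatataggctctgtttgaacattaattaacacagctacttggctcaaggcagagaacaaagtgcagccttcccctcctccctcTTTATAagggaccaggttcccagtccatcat
Cyp2j11: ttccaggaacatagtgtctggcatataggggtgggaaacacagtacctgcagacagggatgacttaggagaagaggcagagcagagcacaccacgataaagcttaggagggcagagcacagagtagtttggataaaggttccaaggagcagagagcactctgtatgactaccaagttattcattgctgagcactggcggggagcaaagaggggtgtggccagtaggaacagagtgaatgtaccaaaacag

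Of the 74 P450 genes, 56 had such a window in the RefSeq table. TATAAA occurred on either strand in 17 of the 56 (30.4%) and in 13% of all 27025 windows. Of the 11 lower genes with a window, 6 had it. CAAAGTCCA, the core of the HNF4 element, occurred in 4 (7.14%), none of them among the 11 lower genes with a window, and in 0.381% of all windows. Neither motif contains the other, and a match or its lack in these windows is a description only.

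Cyp4b1 hydroxylates fatty acids and activates some foreign compounds, among them furans. It was 970.4, 803 and 661 FPKM at 0 min, 742, 662 and 984 FPKM at 16 min, and 829.8, 816.5 and 969.7 FPKM at 20 min, so these groups overlapped. It was 468, 649 and 443 FPKM at 26 min, 347, 345 and 513 FPKM at 28 min, and 329.8, 387 and 312 FPKM at 30 min. From 26 min on, all kidneys lay below the sham kidneys, and neighbouring times overlapped.

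For Cyp4b1 the log2 fold change was -0.05 (SE 0.18) at 16 min and -0.67 (adjusted p 0.00742) at 26 min. It reached -1.12 (adjusted p 2.92e-05) at 28 min and -1.25 (SE 0.18, adjusted p 6.12e-06) at 30 min. It passed at 28 and 30 min alone. No single step between neighbours was called: the step from 26 to 28 min was -0.45 (adjusted p 0.0807). Among all P450 genes at 30 min it had the highest mean, 343 FPKM.

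**Figure D3:**
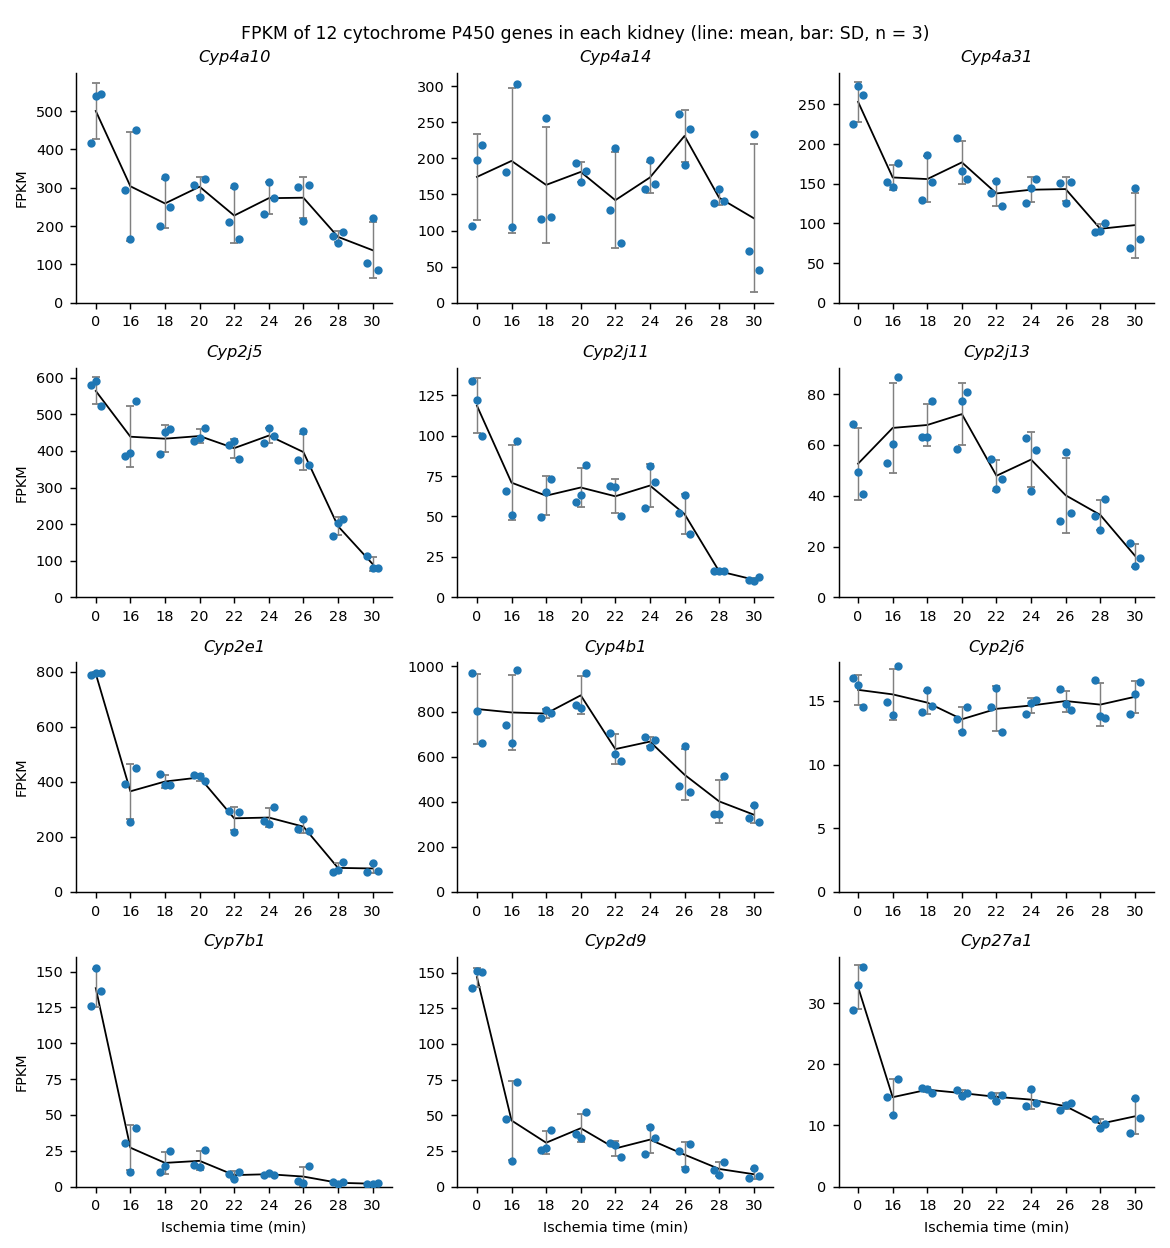
FPKM (y axis, from 0) of 12 P450 genes against ischemia time in min (x axis, evenly spaced categories); points are kidneys, lines are means and bars are SD of 3 kidneys. Cyp7b1, Cyp2d9 and Cyp27a1 were lower from 16 min on, the kidneys of Cyp2j5 and Cyp2j11 at 28 and 30 min lay below all those at 26 min, Cyp4a14 spread from 45.5 to 234 FPKM at 30 min, and Cyp2j6 stayed between 12.6 and 17.8 FPKM.

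Of the 8 Cyp4f genes, 1 was lower at 28 and at 30 min. This was Cyp4f14, whose kidneys were between 0.85 and 1.42 FPKM at 0 min and between 0.02 and 0.12 FPKM at 30 min. Its level is under the limit for naming, and it was chosen after its values were seen. Cyp4f13 was the most abundant, with 23.6, 24.4 and 24.4 FPKM at 0 min and 15.3, 14.8 and 15.5 FPKM at 28 min. Its log2 fold change at 28 min was -0.76 (SE 0.07, adjusted p 2.84e-08), inside the fold limit of 1, although the groups did not overlap at any of the 8 times. Cyp4f16 went the other way without being called, with 3.19, 2.98 and 3.51 FPKM at 0 min and 8.15, 7.61 and 6.29 FPKM at 28 min. All its ischemia kidneys lay above its sham kidneys. Cyp4f17 had means of 4.96 FPKM at 0 min and 6.73 FPKM at 30 min, with overlapping kidneys. The Cyp4f sum had means of 34.1 FPKM at 0 min and 30.1 FPKM at 30 min.

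The Cyp2d subfamily oxidises drugs and steroids, and Cyp2d9 hydroxylates testosterone in male mice. Its 8 members lie in 1 cluster on chromosome 15, and 4 of them were at 10 FPKM or more at 0 min. Of the 8, the number lower was 2 at each time from 16 to 26 min, and 3 at 28 and at 30 min. Cyp2d9 was 139, 151 and 150 FPKM at 0 min and 47.4, 18.1 and 73.4 FPKM at 16 min. At 30 min it was 5.74, 12.7 and 7.50 FPKM, a log2 fold change of -4.01 (SE 0.41, adjusted p 1.06e-07). Every ischemia kidney lay under the lowest sham kidney.

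Cyp2d12 was 40.9, 54.5 and 48.5 FPKM at 0 min and 8.83, 7.50 and 20.6 FPKM at 16 min, and it was lower in all 8 comparisons, with a log2 fold change of -2.06 (SE 0.31, adjusted p 0.000233) at 16 min. Cyp2d26 followed another course, with 136, 145 and 146 FPKM at 0 min, 107, 124 and 62.2 FPKM at 26 min and 33.8, 31.0 and 28.1 FPKM at 28 min. From 26 to 28 min its log2 fold change was -1.61 (SE 0.30, adjusted p 0.000948), and none of its comparisons with 0 min up to 26 min passed. Cyp2d22 lay between 6.98 and 13.4 FPKM in all kidneys and was called in none. Other P450 genes shared 27.8% of the 50-base stretches of Cyp2d9, 15.8% of those of Cyp2d12 and 10.5% of those of Cyp2d26.

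Of the 6 Cyp2c genes, 5 were under 1 FPKM in every kidney. Cyp2c23, an epoxygenase of arachidonic acid, was 31.0, 30.7 and 27.7 FPKM at 0 min and 33.0, 28.6 and 21.9 FPKM at 26 min, with overlap. It was 13.5, 15.2 and 13.6 FPKM at 28 min and 10.2, 6.48 and 3.62 FPKM at 30 min, and the groups at 26, 28 and 30 min did not overlap. Its log2 fold change was -0.95 (SE 0.21, adjusted p 0.00405) from 26 to 28 min, inside the fold limit, and -1.01 (adjusted p 0.00455) from 28 to 30 min. Cyp2c23 and Cyp2j5, both epoxygenases of arachidonic acid, were the 2 P450 genes called at that last step.

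Cyp2a4 and Cyp2a5 are another near-identical pair, known as a steroid hydroxylase and a coumarin hydroxylase. Their coding sequences differed at 23 of 1485 bases (98.45% identity), and 36.1% of the 50-base stretches of Cyp2a4 also occurred in Cyp2a5. The stretch from base 596 to base 655, counted as above, is shown with its 4 differing bases in capitals.
Cyp2a4: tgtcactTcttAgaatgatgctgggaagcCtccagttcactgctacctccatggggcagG
Cyp2a5: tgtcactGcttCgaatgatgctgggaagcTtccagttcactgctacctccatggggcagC

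The values of the copies took different courses, and how reads of shared stretches were divided between them is not given in the sources used here. Cyp2a4 was 168, 318 and 229 FPKM at 0 min, 31.5, 36.7 and 48.6 FPKM at 28 min, and 11.7, 21.6 and 30.7 FPKM at 30 min, with a log2 fold change of -3.48 (SE 0.39, adjusted p 2.86e-07) at 30 min. Cyp2a5 was 80.1, 69.5 and 111 FPKM at 0 min and 162, 147 and 238 FPKM at 28 min, so the groups did not overlap. At 28 min the log2 fold change was 1.06 (SE 0.28, adjusted p 0.00327), and it fell below the fold limit without kidney 2 at 0 min (0.94) or kidney 3 at 28 min (0.88). Cyp2a4 passed as lower at all times from 20 min on.

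The share of Cyp2a4 in the pair was 72.4% at 0 min, 29.8% at 26 min and 12.7% at 30 min. The sum of the pair was 325 ± 70.7 FPKM at 0 min, 221 ± 57.0 at 28 min and 168 ± 42.0 at 30 min (SD, n = 3), and its kidneys at 28 min overlapped those at 0 min. The 250 bases before the start sites of Cyp2a4 (chr7:26306942-26307191, plus strand) and Cyp2a5 (chr7:26835089-26835338, plus strand) had 245 identical bases of 250 (98.0%) once aligned, with the Cyp2a5 window shifted by 1 base. They are shown because Cyp2a4 was lower and Cyp2a5 higher at 28 min, with TATAAA in capitals.
Cyp2a4: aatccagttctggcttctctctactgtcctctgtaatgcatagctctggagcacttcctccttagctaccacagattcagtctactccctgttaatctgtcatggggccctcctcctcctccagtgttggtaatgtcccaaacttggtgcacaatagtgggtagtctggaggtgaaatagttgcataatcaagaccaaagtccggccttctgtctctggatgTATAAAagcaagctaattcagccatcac
Cyp2a5: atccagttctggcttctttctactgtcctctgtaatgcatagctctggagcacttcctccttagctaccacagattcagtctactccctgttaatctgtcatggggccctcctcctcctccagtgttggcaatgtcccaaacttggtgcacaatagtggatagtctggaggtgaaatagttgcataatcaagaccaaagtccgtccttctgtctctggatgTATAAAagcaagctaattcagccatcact

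**Figure D4:**
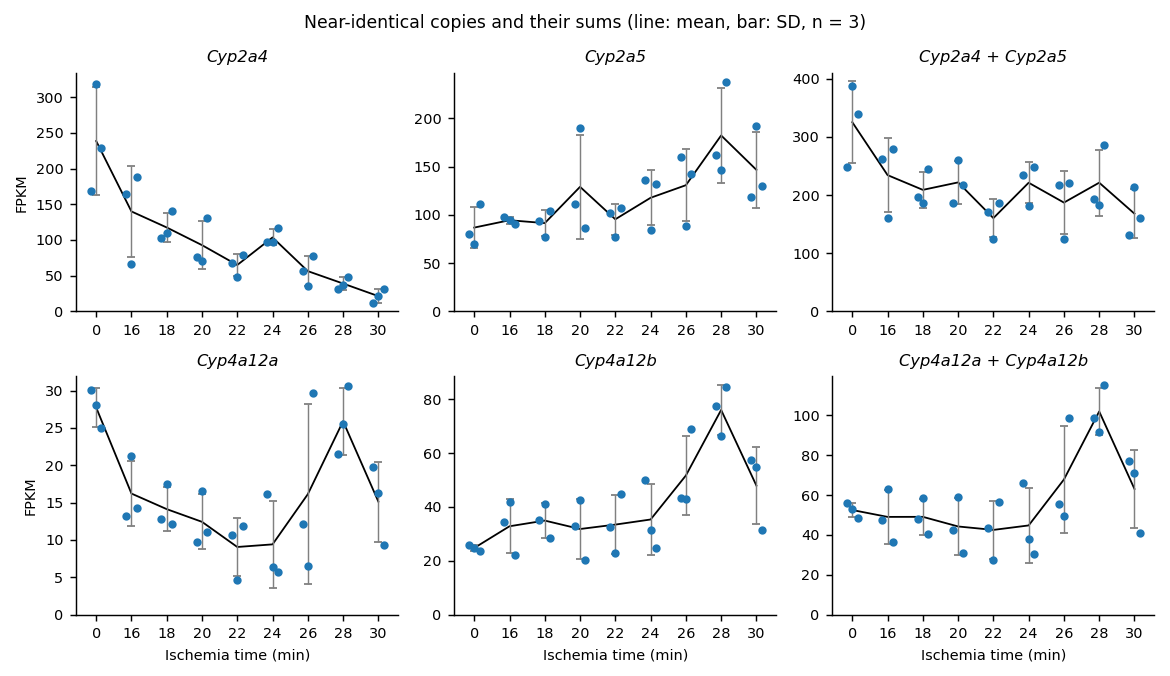
FPKM (y axis, from 0) of the copies Cyp2a4 and Cyp2a5 (upper row) and Cyp4a12a and Cyp4a12b (lower row), with the sum of each pair at the right, against ischemia time in min (x axis, evenly spaced categories); points are kidneys, lines are means and bars are SD of 3 kidneys. Cyp2a4 was lower from 20 min on, Cyp2a5 had its highest mean at 28 min, and the Cyp4a12 sum was 102 FPKM at 28 min against 52.5 FPKM at 0 min.

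Genes of sterol metabolism included Cyp7b1, which had the most negative log2 fold change of the 74 genes. This oxysterol hydroxylase was 126, 153 and 136 FPKM at 0 min and 30.7, 10.04 and 40.6 FPKM at 16 min. It was 2.88, 1.96 and 3.04 FPKM at 28 min and 1.68, 1.69 and 2.55 FPKM at 30 min, so that all ischemia kidneys lay below the sham kidneys. Cyp7b1 had a log2 fold change of -2.51 (SE 0.47, adjusted p 0.00115) at 16 min and -5.54 (SE 0.47, adjusted p 8.01e-09) at 30 min. At 26 min the kidneys were 3.62, 2.74 and 14.5 FPKM, and the slope over 16 to 26 min had an adjusted p of 0.18.

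Cyp27a1, the mitochondrial sterol hydroxylase, was lower from 16 min on. It was 28.9, 33.0 and 35.9 FPKM at 0 min and 14.6, 11.7 and 17.6 FPKM at 16 min, and its means lay between 10.3 and 15.8 FPKM at every later time. Its log2 fold change was -1.20 (SE 0.14, adjusted p 1.41e-05) at 16 min and -1.54 (SE 0.14, adjusted p 1.36e-08) at 30 min. Cyp27a1, Cyp7b1, Cyp2d9 and Cyp2d12 were the 4 P450 genes lower in all 8 comparisons with 0 min, as were 129 of all genes (0.709%). Cyp39a1 and Cyp46a1, also oxysterol and cholesterol hydroxylases, lay between 1.43 and 3.73 FPKM and between 0.57 and 1.30 FPKM and were not called.

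P450 genes of steroid hormone synthesis were close to 0. Over all kidneys Cyp11a1 reached at most 0.09 FPKM, Cyp17a1 0.39, Cyp21a1 0.16 and Cyp11b1 0.05 FPKM. Cyp11b2 was not analysed here. The adrenal regulator Nr5a1 was at most 0.02 FPKM, and the adrenal cortex list as a whole, of which 0 of 5 genes were called, summed to between 2.40 and 4.80 FPKM. The liver genes Cyp7a1 and Cyp8b1 were at most 0.03 and 0.09 FPKM, and Alb, the defining gene of hepatocytes, lay between 1.41 and 5.77 FPKM. On the hepatocyte list of 5 genes, Apoh was lower at all 8 times and Serpina1a at 26, 28 and 30 min. The sum of that list went from between 118 and 160 FPKM at 0 min to between 6.97 and 15.9 FPKM at 30 min. At 0 min most of it was Serpina1a, with 151, 104 and 114 FPKM, against 4.81, 9.21 and 3.23 FPKM at 30 min. Alb did not fall, with 2.65, 2.42 and 1.62 FPKM at 0 min and 3.43, 5.77 and 2.83 FPKM at 30 min. The part of liver genes in the P450 results was not tested.

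Among the retinoic acid hydroxylases, Cyp26b1 was lower at all times from 16 to 28 min but not at 30 min. It was 1.93, 4.36 and 2.66 FPKM at 0 min, 0.41, 0.20 and 0.37 FPKM at 24 min, and 0.88, 1.31 and 3.69 FPKM at 30 min. Cyp26b1 had a log2 fold change of -1.67 (SE 0.30, adjusted p 0.000514) at 24 min and -0.62 (SE 0.30, adjusted p 0.0994) at 30 min, and this gene too was chosen after its values were seen. Cyp26a1 was at most 0.44 FPKM and Cyp26c1 at most 0.08 FPKM.

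Some members had higher values than the sham kidneys without being called. Cyp2s1 was 8.84, 7.90 and 8.47 FPKM at 0 min and at least 10.4 FPKM in all 24 ischemia kidneys, so no group overlapped the sham kidneys. The log2 fold changes were between 0.54 at 28 min and 0.94 at 22 min (SE 0.16, adjusted p 0.000356), inside the fold limit at each of the 8 times. Cyp20a1, a P450 of unknown substrate, was 9.27, 10.5 and 9.66 FPKM at 0 min and 12.7, 13.1 and 13.3 FPKM at 28 min, a log2 fold change of 0.24 (SE 0.09, adjusted p 0.0233).

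The 4 Cyp2b and 4 Cyp3a genes and the Cyp1 genes, which respond to foreign compounds in the liver, were low and not called. The Cyp2b sum was under 1 FPKM at every time on average, and the Cyp3a sum, nearly all Cyp3a13, was between 2.18 and 3.41 FPKM. Cyp1a1 was at most 0.85 FPKM, and Cyp1b1, the more abundant Cyp1 gene, lay between 3.36 and 14.5 FPKM. Of the members outside these families, Cyp4v3 had means of 2.83 FPKM at 0 min and 5.82 FPKM at 30 min and was not called.

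The size of the step at 2 intervals with no kidney in common is plotted for the 36 genes with a mean of at least 1 FPKM. For 9 of them the largest step between neighbouring times was that from 0 to 16 min (25.0%, beside 31.6% of all 12346 genes at this level), for 13 it was from 26 to 28 min (36.1%, beside 30.3%) and for 8 it was from 28 to 30 min (22.2%, beside 24.0%). Of these, 7, 9 and 5 were falls. The share of falls among all genes was not computed, so whether these numbers are unusual is not known.

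**Figure D5:**
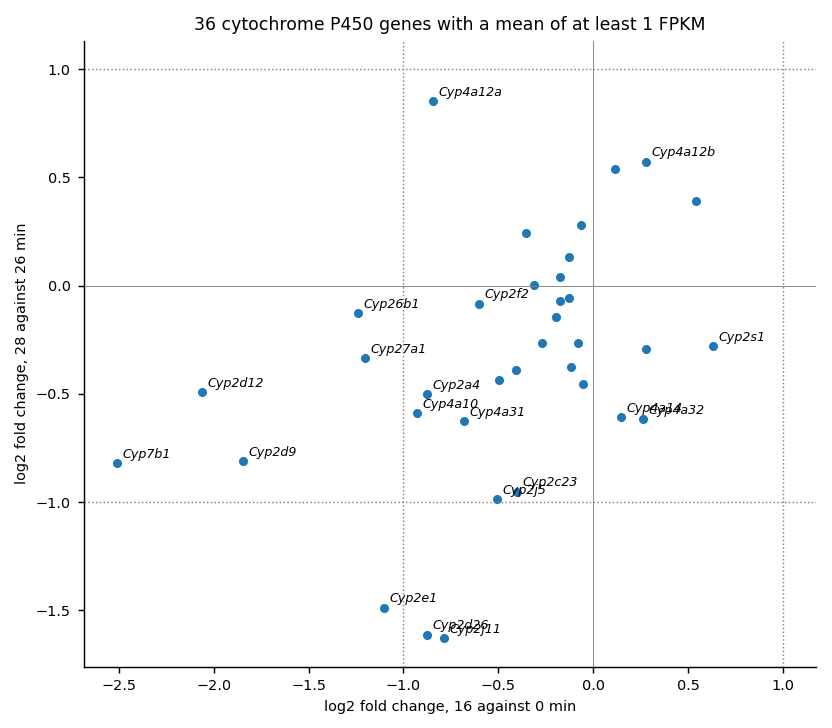
Log2 fold change on the log2(FPKM + 1) scale from 0 to 16 min (x axis) and from 26 to 28 min (y axis) for 36 P450 genes; dotted lines mark -1 and 1, and genes with the larger changes are named. Cyp7b1, Cyp2d9 and Cyp2d12 lie far to the left, Cyp2d26 and Cyp2j11 lie low, and Cyp2e1 is past -1 on both axes.

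P450 enzymes depend on electron donors and on haem, and epoxide hydrolases break down the epoxides that some of them make. Of 8 electron donor genes, 0 were called in any comparison, and their sum went from a mean of 1326 FPKM at 0 min to 938 FPKM at 30 min. Cyb5a, a cytochrome b5 and the most abundant of them, had means of 817 and 436 FPKM at these times (log2 fold change -0.89, SE 0.09, adjusted p 4.7e-08). Its fold and those of Cyb5b (-0.69) and Cyb5r3 (0.86) stayed inside the limit, although their kidneys at 0 and 30 min did not overlap. Por, the reductase of microsomal P450 enzymes, had a mean of 118 FPKM at 0 min and 118 FPKM at 30 min, and Fdx1, the ferredoxin of mitochondrial P450 enzymes, 44.0 and 39.9 FPKM. Of 4 epoxide hydrolase genes, 1 was lower: Ephx2, whose product hydrolyses arachidonic acid epoxides, went from a mean of 202 FPKM at 0 min to 90.3 FPKM at 30 min (log2 fold change -1.09).

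Of 13 genes of haem synthesis and breakdown, 1 was higher at each time from 16 to 26 min, and 3 were higher and 1 lower at 28 and at 30 min. The gene higher at every time was Hmox1, which breaks haem down, with means of 28.3 FPKM at 0 min, 63.1 at 16 min and 297 FPKM at 28 min. Uros, an enzyme of haem synthesis, was lower at 28 and 30 min, with means of 15.6 FPKM at 0 min and 4.11 FPKM at 30 min. Alas1, the first enzyme of haem synthesis outside red cells, had means of 88.1 and 115 FPKM at 0 and 30 min and was not called.

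Of 16 transcription factor genes known to act on P450 genes, 0 were called from 16 to 26 min. Cebpb was higher at 28 and 30 min, with means of 14.5 FPKM at 0 min and 47.2 FPKM at 30 min. Ppara had means of 16.0 FPKM at 0 min and 16.2 FPKM at 30 min and Hnf4a had 199 and 120 FPKM, and neither passed. Several P450 genes of mouse kidney are known to be more active in males, and so are Kap, Slco1a1 and Slc7a13. All 3 of the latter were lower at 26, 28 and 30 min, and Kap had means of 48144 FPKM at 0 min, 24882 at 16 min and 5987 FPKM at 30 min. Of the genes known as more active in females, Slc7a12 and Prlr, both were lower at 28 and 30 min. What these regulators and sex-biased genes had to do with the P450 values was not tested.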

How the data were processed

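RNA-Seq was done on 27 left kidneys, 3 at each of 9 ischemia times. The authors deposited FPKM per gene symbol and kidney, rounded to 2 decimals. The submitters' processing notes name Bowtie2, RSEM, DESeq2 and the build GRCm38.p6, without versions. The quantile normalization and log2 transformation named in the study's methods are not in these values. Read counts were not used: only 6 genes had values in whole steps of 1 read, by which the value of 1 read ranged from 0.932 to 1.06 of the median kidney, so the depth itself is unknown and precision rests on the 3 replicates.

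The labels gave each kidney its ischemia time. Log2(FPKM + 1), with a pseudocount of 1 FPKM, was quantile normalized between kidneys and fitted in limma 3.58.1 (R 4.3.3) with 1 mean per time, over 18188 genes above 0 FPKM in at least 3 kidneys. Fold changes are on this scale and understate those of low genes. P-values were adjusted by Benjamini-Hochberg over all genes tested, and DEGs were genes with a log2 fold change beyond 1 in either direction at an adjusted p under 0.05. The steps were tested on simulated data. Figures were drawn with matplotlib.

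The P450 genes, gene lists and tests were chosen with earlier results of these data known. Genes were named with values if a group mean reached 10 FPKM, if they were DEGs at 28 against 26 min, in all 8 comparisons with 0 min or as higher, and for adrenal steroid synthesis. Cyp26b1, Cyp4f14, Cyp4f16, Cyp4f17 and members listed at low level were added. Some genes of the companion lists are not reported here. Coding identity and shared stretches of 50 bases, from the GENCODE transcripts of GRCm38, stood in for the protein identity planned for finding copies. Alternatives changed 1 choice each: the pseudocount (0.1 FPKM), the normalization (none, or a constant sum per kidney, TPM), the filter (none, or 1 FPKM in 3 kidneys), the fit (compared groups alone, eBayes with trend, or replicate number as block) and the kidneys (each left out in turn).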

Additional observations from a re-analysis of the deposited data

How the results depend on the processing

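Each count of P450 genes was computed again under every alternative. The matching shares of all genes were not computed, so these counts have no background beside them. With a pseudocount of 0.1 FPKM, the lower calls against 0 min were 14 at 18 and at 20 min, then 16, 17 and 18 at 22, 24 and 26 min, and 25 at 28 and at 30 min. That setting also gave 6 lower at 28 against 26 min and 1 higher gene at 22 min. Without quantile normalization, 4 were lower at 18 min, 1 was higher at 22 min and 1 at 24 min. With a constant sum per kidney (TPM), 1 was higher at 20, 22, 24 and 30 min each and 2 at 26 min. In a fit of the compared groups alone, 0 were lower at 16 against 0 min and 0 at 30 against 28 min, a fit that has 4 residual degrees of freedom. The cause of the other shifts was not tested.

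Leaving out 1 replicate gave 5 to 9 lower calls for 16 against 0 min, 6 to 8 for 18 min, 5 to 6 for 20 min, 9 to 10 for 22 min, 7 to 9 for 24 min, 8 to 10 for 26 min, and 14 to 16 for both 28 and 30 min. The lower calls were 3 to 5 at 28 against 26 min (5 without kidney 3 at 26 min), 1 to 3 at 30 against 28 min (1 without kidney 3 at 30 min), 0 to 2 at 26 against 16 min (2 without kidney 2 at 16 min) and 0 to 3 for the slope (3 without that kidney, 1 without kidney 3 at 26 min). Higher calls at 28 min were 1 to 2 (1 without kidney 2 at 0 min or kidney 3 at 28 min). They were 0 to 1 at 22 min (1 without its kidney 3), at 26 min (1 without its kidney 1 or 2), at 30 min (1 without its kidney 3), at 28 against 26 min (1 without kidney 3 at 26 min) and at 30 against 28 min (1 without kidney 1 at 30 min). Groups left with 2 kidneys shared the spread of the others.

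Deviations of same-numbered kidneys had correlations from -0.42 to 0.48, with a median of -0.01, the same median as for kidneys of different number. A batch shared by only some same-numbered kidneys would not show in this median. With a replicate block, 1 gene passed for a falling slope over 16 to 26 min, and no other count moved by over 1.5 times. Of 33 named gene values, 0 reversed under any alternative, and 4 lost their call in the fit of the compared groups alone (Cyp27a1, Cyp2d12, Cyp2d9 and Cyp7b1 at 16 min, adjusted p from 0.0792 to 0.153). Leaving out 1 replicate kept 193 such outcomes, with 2 calls lost and 3 gained: Cyp2a5 at 28 min lost its call without kidney 2 at 0 min (0.94) or kidney 3 at 28 min (0.88), and at 30 min calls were gained by Cyp4a12a without kidney 1 (-1.20), Cyp4a14 without kidney 2 (-1.45) and Cyp4a12b without kidney 3 (1.09). With 3 kidneys per time and FPKM without counts, small changes and genes under 1 FPKM could not be resolved.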
